A study of Mus musculus with 6 samples.

Results

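Mitochondrial ribosomal proteins build the ribosome that works inside mitochondria. In these data they are the genes whose symbol begins with Mrpl (named for the large subunit) or Mrps (named for the small subunit). They were taken from the microarray by probe sets that carried exactly 1 such symbol, with 1 probe set kept per gene, the one with the highest mean over all hearts. This gave 77 genes, 48 Mrpl and 29 Mrps, out of 19938 genes measured in the same way. The gene table used lists 78 protein-coding Mrpl and Mrps genes, and the remaining one, Mrpl53, shares its probe set with Ccdc142 and was not analysed here.

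Total RNA of 6 mouse hearts was measured on 1 Affymetrix Gene 1.0 ST array per heart. The 3 Ppif-/- hearts came from mice that lack Ppif in the whole body, a line moved onto C57BL/6 by backcrossing from Sv129. The 3 WT hearts came from C57BL/6 mice, and all mice were 8 weeks old and untreated as far as the labels say. Ppif encodes cyclophilin D, a protein of the mitochondrial matrix that favours opening of the permeability transition pore, and the comparison asks how cardiac gene expression differs without it. The number of backcrosses and the use of littermates were not stated in any source at hand, so the absence of Ppif and any flanking Sv129 DNA cannot be told apart. The deposited values are log2 expression levels, so a difference of 1 is a doubling, and levels of different genes are not compared because probe sets differ in brightness.

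The mitochondrial ribosome translates the few messenger RNAs of the mitochondrial genome, all of which encode membrane subunits of the respiratory chain and ATP synthase. Its RNA is made inside mitochondria, whereas all of its proteins are encoded in the nucleus, made in the cytosol and imported. Some of these proteins have a counterpart in bacterial ribosomes and others are specific to mitochondria. The heart depends heavily on respiration, and inherited defects in several of these genes, Mrpl3 and Mrpl44 among them, are known to cause cardiomyopathy in humans.

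Ppif itself was at 6.00, 6.25 and 6.44 in the Ppif-/- hearts and at 11.44, 11.28 and 11.49 in the WT hearts, a 36.0-fold lower level (difference -5.17 ± 0.12 SE on the log2 scale, adjusted p = 2.97e-06 by limma). The 6 arrays had medians from 6.03 to 6.11. The 8 cardiomyocyte markers were measured and none passed, with a mean level of 13.50 to 13.51 in the Ppif-/- hearts and 13.48 to 13.52 in the WT hearts. Of the other cell types, 1 of 7 macrophage markers was called higher (mean level 7.75 to 7.95 against 7.66 to 7.69), and 1 of 7 fibroblast markers and 1 of 6 smooth muscle and pericyte markers were called lower. The part of these shifts in the results below was not tested, and in whole tissue fewer cells of a type and less RNA per cell cannot be told apart.

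Among the 77 mitochondrial ribosomal protein genes, 1 was higher in Ppif-/- hearts, Mrpl55, by 1.77-fold, and 0 were lower at an adjusted p under 0.05 (limma, 3 against 3 hearts). Of all 23410 probe sets tested, 1.09% were called by this rule, 0.624% of them higher and 0.461% lower. Most of the 77 genes lay close to 0: their median difference, Ppif-/- minus WT, was -0.02 on the log2 scale, with quartiles at -0.08 and 0.05. The median was -0.002 over all tested probe sets. It was -0.02 over the 8653 genes with a mean level within the range of the 77. The differences split into 34 above 0 and 43 below it (55.84%), where 49.2% and 50.8% of all tested probe sets lay on these sides. Of the 8653 genes of similar level, 56.41% lay below 0. The 95% interval of the difference lay wholly within -0.5 to 0.5 for 71 of the 77 genes, and the exceptions were Mrpl55, Mrps35, Mrps26, Mrpl22, Mrpl20 and Mrpl47. This interval condition was met by 87.7% of all tested probe sets.

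**Figure D1:**
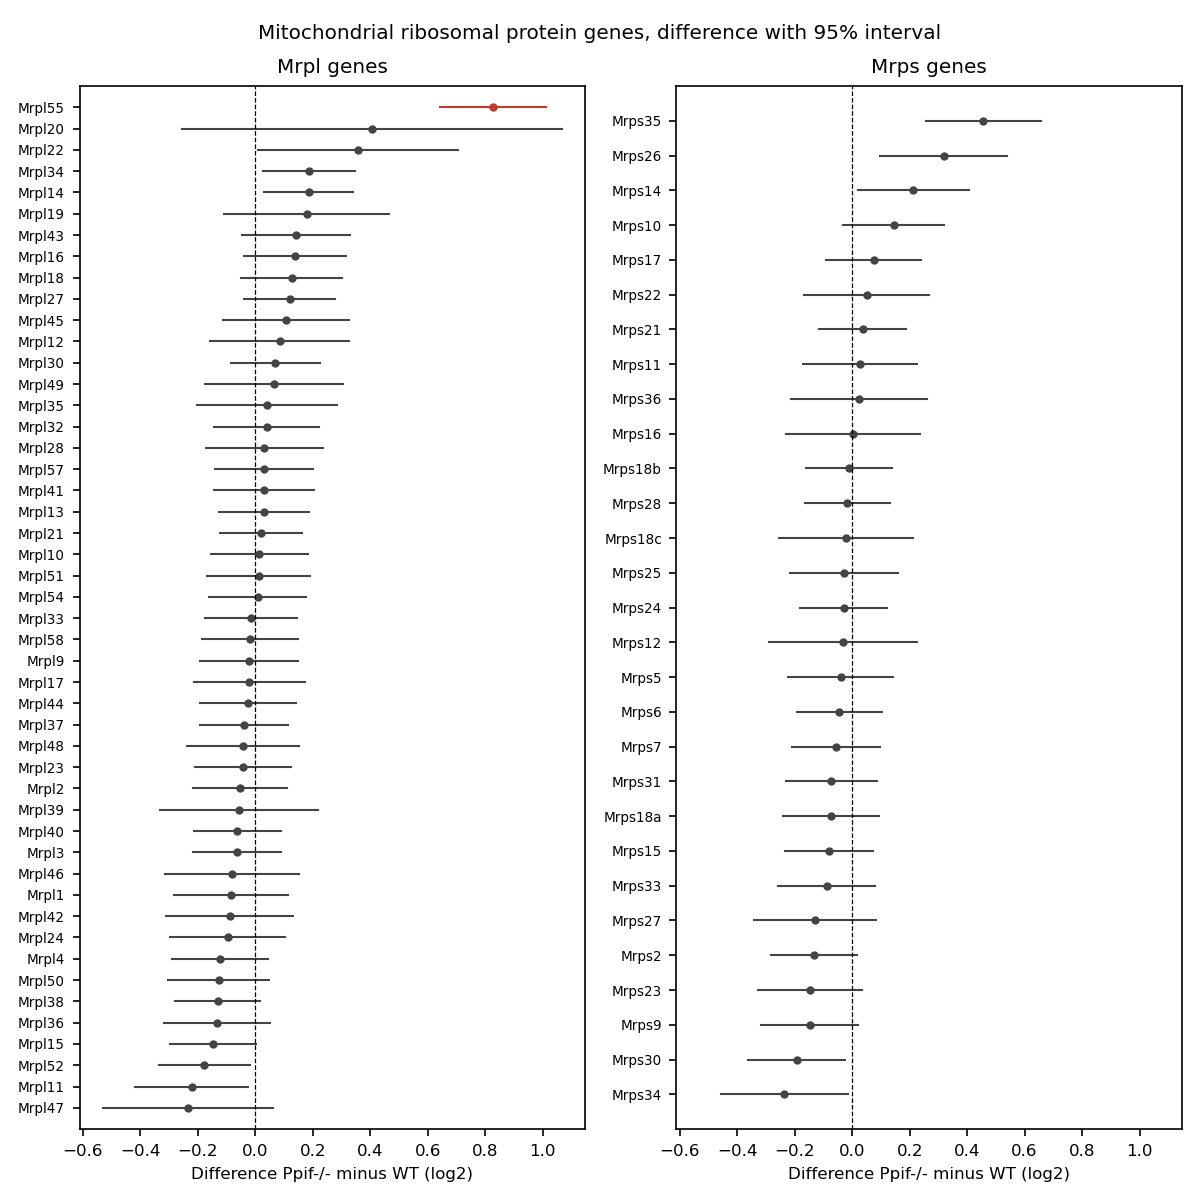
Difference in log2 expression between 3 Ppif-/- and 3 WT hearts for each of the 48 Mrpl genes (left panel) and 29 Mrps genes (right panel), ordered by size, with points for the limma estimate, bars for its 95% interval and a dashed line at 0. Mrpl55, drawn in red, is the gene called after adjustment, at 0.83 with an interval from 0.64 to 1.01, and Mrpl20 has the widest interval.

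At an unadjusted p under 0.05, 7 genes were higher and 4 lower, 14.29% of the 77 beside 12.9% of all tested probe sets (6.1% higher and 6.81% lower). The groups did not overlap in 20 genes, 11 with all Ppif-/- hearts above all WT hearts and 9 with all below, 25.97% beside 19.8% of all tested probe sets (9.21% above and 10.6% below). Among the 8653 genes whose mean level lay within the range of the mitochondrial ribosomal protein genes, from 6.92 to 11.30, these shares were 17.75% and 28.02%. An absolute difference of 0.3 or more was found in 5 genes, Mrpl55, Mrps35, Mrpl20, Mrpl22 and Mrps26, all with estimates above 0, beside 7.28% of all tested probe sets (3.93% above 0 and 3.35% below). The 59 genes for proteins of the cytosolic ribosome, measured on the same arrays, had 0 calls and a median difference of 0.01. Of them 3 (5.085%) had an unadjusted p under 0.05, all above 0, beside 12.9% of all tested probe sets.

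**Figure D2:**
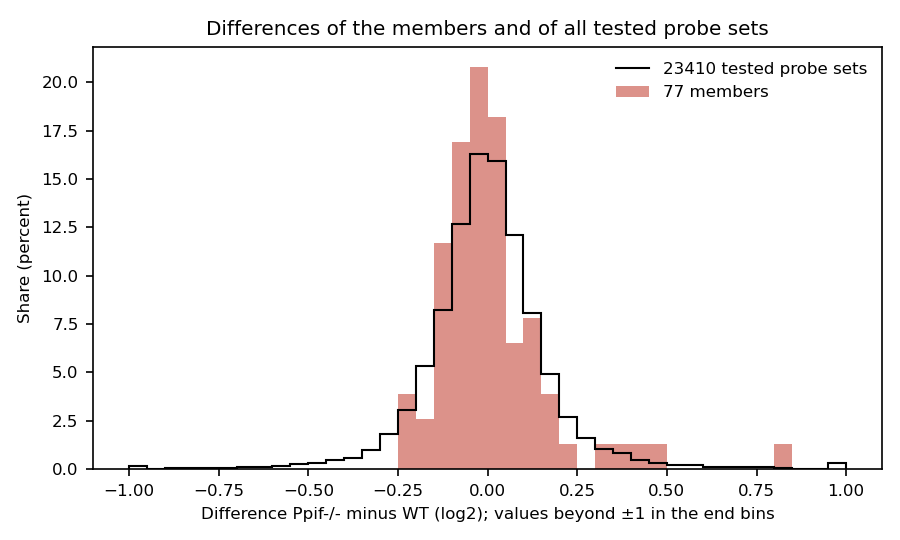
Share of genes, in percent, in bins of the log2 difference Ppif-/- minus WT, for the 77 mitochondrial ribosomal protein genes (filled bars) and all 23410 tested probe sets (black outline). Both distributions centre near 0, and the isolated bar on the right is Mrpl55 at 0.83.

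Mrpl55 encodes a large-subunit protein with a bacterial counterpart. Its level was 9.70, 9.78 and 9.79 in the Ppif-/- hearts and 9.06, 8.84 and 8.90 in the WT hearts. All 3 Ppif-/- hearts stood above all 3 WT hearts, and the gap between the groups was wider than the range within either. The difference was 0.83 ± 0.08 (SE), with an unadjusted p of 7.23e-06 and an adjusted p of 0.00321 by limma. It stayed past the threshold in all 18 alternative analyses, with differences from 0.78 to 0.89 and adjusted p from 0.000581 to 0.0239 by limma. Averaging a gene's probe sets and updating symbols left its values unchanged, so these alternatives could not alter the call. Of 20 measured neighbours of Mrpl55 on its chromosome, 10 on either side, 0 were called, beside 1.09% of all tested probe sets. An unadjusted p under 0.05 by limma was found in 4 neighbours of Mrpl55, beside 12.9% of all tested probe sets. The 100 bases before its transcription start, shown because it is the gene called, read 5′ to 3′ on the gene's strand in RefSeq (GRCm38.p6):
Mrpl55, chr11:59202386-59202485, plus strand: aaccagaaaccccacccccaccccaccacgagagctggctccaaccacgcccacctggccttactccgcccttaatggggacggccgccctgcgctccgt
None of the factor motifs described further on for ETS, NRF1 and YY1 occurs in these bases. On the opposite strand a non-coding gene, 2610507I01Rik, which was not measured by the array's named probe sets, starts close by, so that their promoter windows share 154 bases.

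Mrps35, a mitochondria-specific protein of the small subunit, had the next lowest p. It measured 8.92, 9.10 and 9.14 in the Ppif-/- hearts and 8.70, 8.57 and 8.52 in the WT hearts. The groups did not overlap, and the lowest Ppif-/- heart, heart 1, stood clear of the highest WT heart, also heart 1. The difference was 0.46 ± 0.09 (SE) with an adjusted p of 0.0611 by limma, short of the threshold. At an adjusted p under 0.1, a looser limit that 2.15% of all tested probe sets passed, Mrpl55 and Mrps35 were the 2 genes of the set called. Mrps35 was called in 3 of the 18 alternatives, with adjusted p from 0.026 to 0.195 over them. Of 20 measured neighbours of Mrps35 on its chromosome, 10 on either side, 0 were called, beside 1.09% of all tested probe sets. An unadjusted p under 0.05 by limma was found in 6 neighbours of Mrps35, beside 12.9% of all tested probe sets.

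**Figure D3:**
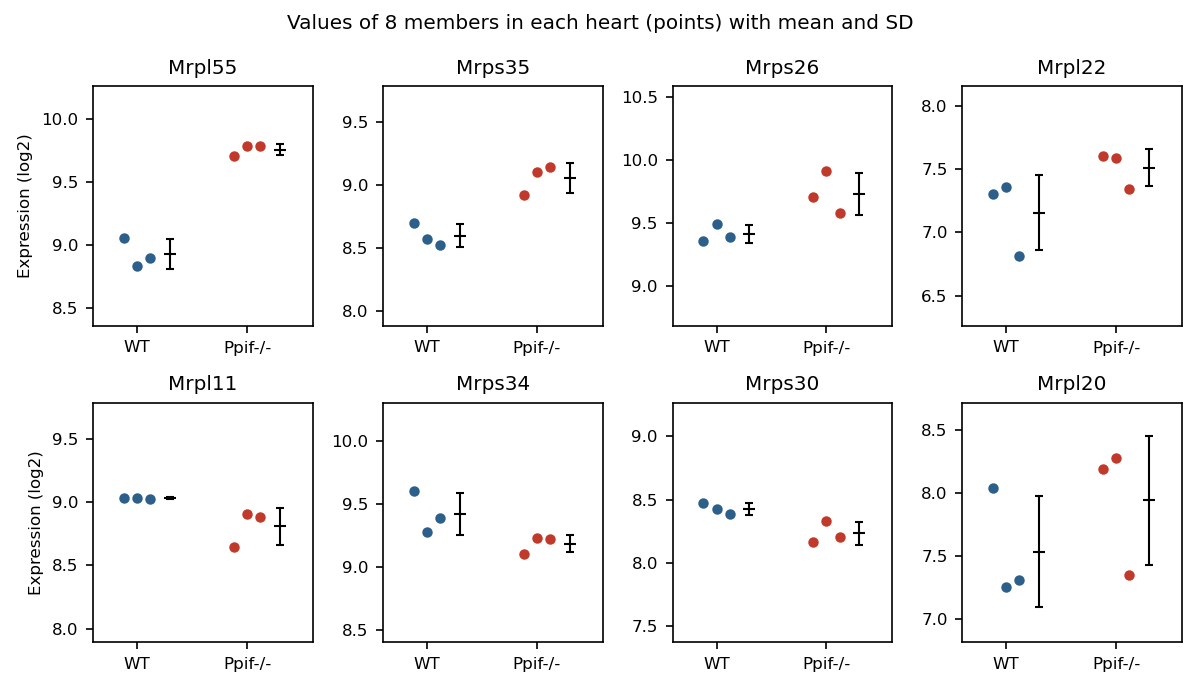
Log2 expression of 8 genes in each heart, with 3 WT hearts in blue and 3 Ppif-/- hearts in red, and the mean and SD of each group as black bars; every panel spans the same range in log2 units. The groups stand clear of each other for Mrpl55 and Mrps35, and Mrpl20 has the widest scatter within both groups.

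Among the other large-subunit genes, 2 with bacterial counterparts, Mrpl14 and Mrpl34, were above WT in all 3 Ppif-/- hearts at an unadjusted p under 0.05. Mrpl14, whose bacterial relative lies at the face that meets the small subunit, was at 8.80, 8.80 and 8.71 against 8.63, 8.57 and 8.55, a difference of 0.19 (adjusted p = 0.29 by limma). Mrpl34 was at 8.39, 8.35 and 8.33 against 8.25, 8.10 and 8.16, also 0.19 (adjusted p = 0.31 by limma). Both groups of hearts were close together in each gene, and neither gene passed the adjusted test. Mrpl22, related to a bacterial protein that lines the exit tunnel of the nascent chain, had a larger difference of 0.36 ± 0.15 (SE) but overlapping groups. Its Ppif-/- hearts measured 7.61, 7.59 and 7.34 and its WT hearts 7.30, 7.36 and 6.81, with WT heart 3 well below all others (adjusted p = 0.375 by limma). Without WT heart 3 the Mrpl22 difference was 0.18 (adjusted p = 0.562 by limma). Non-overlapping groups above WT were also seen for Mrpl16, Mrpl18, Mrpl27 and Mrpl43, with differences from 0.12 to 0.14 and no unadjusted p under 0.05.

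Large-subunit genes with lower values included Mrpl11, a protein of the base of the stalk that recruits translation factors. It was at 8.64, 8.91 and 8.89 in the Ppif-/- hearts and at 9.04, 9.03 and 9.03 in the WT hearts. The WT hearts were nearly identical, and Ppif-/- heart 1 was the lowest of all. The difference was -0.22 ± 0.09 (SE, adjusted p = 0.324 by limma), and for Mrpl11 it was -0.14 without Ppif-/- heart 1. Mrpl52, a mitochondria-specific protein, measured 8.45, 8.38 and 8.33 against 8.62, 8.55 and 8.52, a difference of -0.18 (adjusted p = 0.326 by limma). Mrpl15 and Mrpl38 were also below WT in every Ppif-/- heart, by -0.15 and -0.13. Mrpl47 had the lowest estimate of the Mrpl genes, -0.24, with overlapping groups and an unadjusted p of 0.105 by limma. Without Ppif-/- heart 3 the Mrpl47 difference was -0.14, and without WT heart 1 it was -0.13.

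In the small subunit, the mitochondria-specific Mrps26 was at 9.70, 9.91 and 9.58 in the Ppif-/- hearts and at 9.36, 9.49 and 9.39 in the WT hearts. The groups did not overlap, with Ppif-/- heart 3 closest to the WT hearts. The difference was 0.32 ± 0.10 (SE, adjusted p = 0.21 by limma), and no alternative called it. Mrps14, which has a bacterial counterpart, was at 8.37, 8.52 and 8.42 against 8.35, 8.11 and 8.21, a difference of 0.21 (adjusted p = 0.34 by limma). Here the lowest Ppif-/- heart and the highest WT heart were almost level. Mrps34, known to be needed for a stable small-subunit RNA, was at 9.11, 9.23 and 9.22 against 9.60, 9.27 and 9.39, a difference of -0.24 (adjusted p = 0.351 by limma). Without WT heart 1 the Mrps34 difference was -0.15. Mrps30, named for the small subunit but found in the large one, was at 8.17, 8.33 and 8.20 against 8.47, 8.42 and 8.38, a difference of -0.19 (adjusted p = 0.317 by limma). In both Mrps34 and Mrps30 every Ppif-/- heart lay below every WT heart, by a narrow margin. Mrps2, Mrps9 and Mrps15 had non-overlapping groups below WT, with differences of -0.13, -0.15 and -0.08, and Mrps10 above WT, with 0.15. Mrps23, whose groups overlapped, differed by -0.15 (unadjusted p = 0.101 by limma).

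Sorted by name, the 48 Mrpl genes had a median difference of -0.003 and the 29 Mrps genes one of -0.03. At an unadjusted p under 0.05 the Mrpl genes counted 4 higher and 2 lower, and the Mrps genes 3 higher and 2 lower. These were 12.5% of the Mrpl genes and 17.24% of the Mrps genes, beside 12.9% of all tested probe sets. The 48 genes with a bacterial counterpart had a median of -0.01 and the 29 mitochondria-specific genes one of -0.04. Divided by both name and origin, genes with an unadjusted p under 0.05 numbered 5 of 30 Mrpl genes with a bacterial counterpart, 1 of 18 mitochondria-specific Mrpl genes, 1 of 18 Mrps genes with a counterpart and 4 of 11 mitochondria-specific Mrps genes, beside 12.9% of all tested probe sets. The 4 were Mrps35, Mrps26, Mrps34 and Mrps30, and the 11 are sorted by name, so they include Mrps30, found in the large subunit, and Mrps36, no longer counted as a ribosomal protein. These medians are descriptions, and differences between these classes were not tested.

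Further genes were described for their known role in the ribosome or in human disease, whatever their values, and none of them passed the adjusted test. Mrpl3, linked to cardiomyopathy, differed by -0.06 (95% interval -0.22 to 0.09), and Mrpl44, an RNase III-like protein with the same link, by -0.03 (-0.19 to 0.14). Of the stalk proteins, Mrpl12, which also binds the mitochondrial RNA polymerase, differed by 0.09 (-0.16 to 0.33) and Mrpl10 by 0.01 (-0.16 to 0.18). Mrpl45, which anchors the ribosome to the inner membrane at the exit tunnel, differed by 0.11 (-0.11 to 0.33). Near the decoding centre, Mrps12 differed by -0.03 (-0.29 to 0.23). The disease genes Mrps16 and Mrps22 differed by 0.002 (-0.23 to 0.24) and 0.05 (-0.17 to 0.27), and Mrps7 by -0.06 (-0.21 to 0.10). Mrpl24, also a disease gene, differed by -0.10 (-0.30 to 0.10), Mrpl41 by 0.03, Mrps5 by -0.04 and Mrps27 by -0.13. The related Mrps18a, Mrps18b and Mrps18c, which occupy different places in the ribosome, differed by -0.07, -0.01 and -0.02. Mrps36, now known as a subunit of the ketoglutarate dehydrogenase complex and not of the ribosome, differed by 0.02 (-0.21 to 0.26). With 3 hearts per genotype, any difference within these intervals remains possible. The intervals do not mark the limit of the adjusted test, which Mrps35 at 0.46 and Mrps26 at 0.32 did not pass.

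In 8 genes several probe sets carried the symbol: Mrpl23, Mrpl27, Mrpl41, Mrpl47, Mrpl51, Mrps5, Mrps33 and Mrps36. The probe sets not used for these genes had differences from -0.07 to 0.10, and Mrpl47, at -0.24 by its brighter probe set, was at 0.01 by the other.

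Some sequence features, which the choice by name did not use, were more frequent in the promoters of these genes than over all protein-coding genes. No comparison with promoters of genes of similar level or of cytosolic ribosomal proteins was made. RefSeq promoter windows, from 250 bases before to 50 after the transcription start (GRCm38.p6), were at hand for 68 of the 77 genes. The exceptions were Mrpl4, Mrpl13, Mrpl15, Mrpl19, Mrpl38, Mrpl54, Mrps28, Mrps34 and Mrps35. Windows were searched on both strands for the letters of 4 motifs: CCGGAAG for ETS factors, which include the nuclear respiratory factor GABP, GCATGCGC for NRF1, AAGATGGCG for YY1 and the E-box CACGTG, bound by Myc and related factors. No matches of different motifs overlapped. ETS letters were found in 25 of the 68 genes (36.8%) against 12.9% of all 17491 protein-coding genes with a window. NRF1 letters were found in 8 (11.8%) against 3.93%, and YY1 letters in 8 (11.8%) against 2.14%. The E-box was found in 5 (7.35%) against 8.91%. At least 1 of the ETS, NRF1 and YY1 motifs stood in 51.47% of the genes and in 17.57% of protein-coding genes, while median GC content was 58.5% and 56.33%. Of the 29 ETS matches, 26 lay between 100 bases before and 50 after the start. Of the 8 YY1 matches, 6 lay after the start, and 6 were on the gene's own strand.

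**Figure D4:**
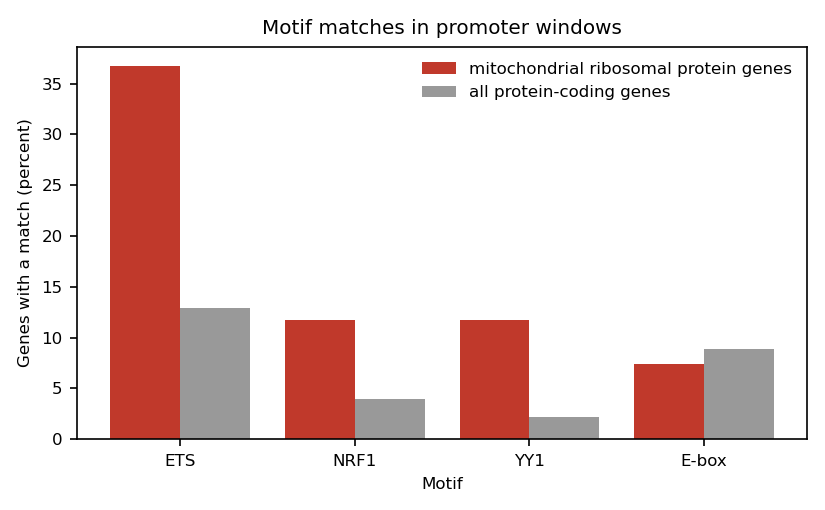
Percent of genes whose promoter window holds each motif, for the 68 mitochondrial ribosomal protein genes with a window (red) and all 17491 protein-coding genes with one (grey). The red bar is the taller one for ETS, NRF1 and YY1, and the lower one for the E-box.

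The 4 genes that combined ETS letters with an unadjusted p under 0.05 were Mrps26, Mrpl34 and Mrpl22, with values above WT, and Mrpl52, with values below WT. They show how the same letters sit in promoters of genes whose estimates lay on both sides of 0. Each line gives the 100 bases before the start from RefSeq (GRCm38.p6), 5′ to 3′ on the gene's strand, with ETS letters in capitals in either orientation and, in Mrpl22, NRF1 letters in capitals as the second run:
Mrps26, chr2:130563657-130563756, plus strand: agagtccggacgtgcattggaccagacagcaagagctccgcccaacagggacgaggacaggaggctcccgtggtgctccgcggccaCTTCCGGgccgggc
Mrpl34, chr8:71464826-71464925, plus strand: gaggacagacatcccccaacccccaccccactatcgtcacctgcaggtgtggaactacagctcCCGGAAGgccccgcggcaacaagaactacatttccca
Mrpl22, chr11:58171564-58171663, plus strand: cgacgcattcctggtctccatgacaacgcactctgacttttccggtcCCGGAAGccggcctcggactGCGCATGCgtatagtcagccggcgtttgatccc
Mrpl52, chr14:54426809-54426908, plus strand: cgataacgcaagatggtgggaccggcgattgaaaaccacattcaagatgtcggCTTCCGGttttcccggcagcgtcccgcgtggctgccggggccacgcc
Genes with ETS letters had a median difference of -0.01 and those without one of -0.03. For NRF1 these medians were -0.01 and -0.03, and for YY1 -0.06 and -0.02. A match is a description of letters and not a measured binding site.

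A second feature found more often than over all protein-coding genes was a close neighbour on the opposite strand. In 22 of the 68 genes (32.35%) the window shared at least 30 bases with that of a protein-coding gene transcribed the other way, against 7.598% of protein-coding genes in the table. The pairs included Mrps12 with Sars2, the mitochondrial seryl-tRNA synthetase, and Mrpl43 with Twnk, the mitochondrial DNA helicase. Mrps27 was paired with Ptcd2, a mitochondrial RNA-processing protein, Mrpl47 with Ndufb5, a subunit of respiratory complex I, and Mrpl49 with Fau, a cytosolic ribosomal protein. Mrpl46 and Mrps11 formed a pair with each other, sharing 141 bases, and differed by -0.08 and 0.03. Of all tested probe sets, 1.09% were called after adjustment and 12.9% had an unadjusted p under 0.05. Of 22 measured neighbours, non-coding ones included, 0 were called by limma after adjustment, and 2 had an unadjusted p under 0.05: Ska3, opposite Mrpl57, at 0.67 and Twnk at -0.19. The ribosomal genes opposite them, Mrpl57 and Mrpl43, were at 0.03 and 0.14. Over the 22, the estimate had the sign of the ribosomal gene's in 15 and the opposite sign in 7, with the pair Mrpl46 and Mrps11 counted from both sides.

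Within a genotype most of the mitochondrial ribosomal protein genes varied little. The median SD between hearts, pooled over both groups, was 0.0794 log2 units, against 0.110 for all tested probe sets and 0.0922 for genes of similar level. It was above the median of all tested probe sets in 20 of the 77 genes and highest in Mrpl20, a large-subunit protein with a bacterial counterpart, at 0.478, ahead of Mrpl22 at 0.236. It measured 8.19, 8.28 and 7.35 in the Ppif-/- hearts and 8.04, 7.25 and 7.31 in the WT hearts. Ppif-/- hearts 1 and 2 and WT heart 1 were high and the other 3 hearts low, so the groups overlapped (difference 0.41 ± 0.29 SE, adjusted p = 0.609 by limma).

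The hearts also differed from each other across the whole set. The median deviation from each gene's mean over the 6 hearts was -0.01, 0.03 and -0.04 in Ppif-/- hearts 1, 2 and 3, and 0.05, -0.05 and 0.04 in WT hearts 1, 2 and 3. WT heart 2 was the lowest of the 6 for 28 of the 77 genes (36.36%), while it was lowest for 22.04% of all tested probe sets. It stood below the gene's mean for 55 genes (71.43%). Genes of similar level had a median deviation of 0.02 in that heart, and so did the cytosolic ribosomal protein genes. Without WT heart 2, 1 gene was called by limma, as with all hearts, and the median difference was -0.04. In that fit 11 genes had an unadjusted p under 0.05, beside 11.4% of all tested probe sets.

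**Figure D5:**
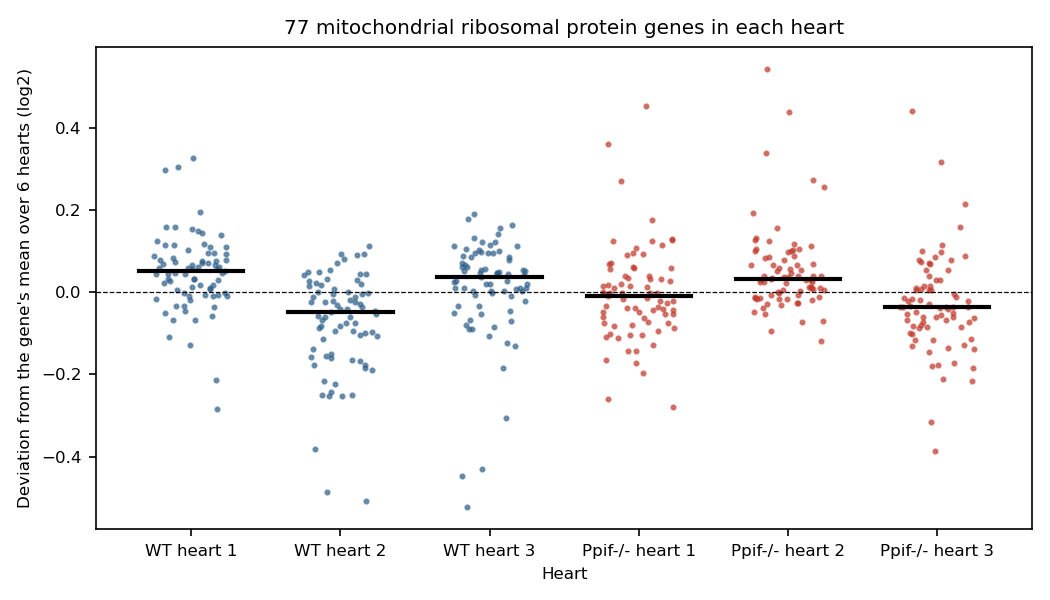
Deviation of each of the 77 genes from its mean over the 6 hearts, in log2 units, with 1 column of points per heart (WT in blue, Ppif-/- in red) and black lines at the median. The medians range from -0.05 in WT heart 2 to 0.05 in WT heart 1, so hearts of 1 genotype span the range of all 6.

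The genes that work with the ribosome were read from 5 lists holding 108 measured genes. In all, 0 were higher and 1 was lower after adjustment by limma. At an unadjusted p under 0.05, 4 were higher and 12 lower, 14.81% of the 108 beside 12.9% of all tested probe sets and 17.75% of genes within the level range of the mitochondrial ribosomal proteins. Differences below 0 were found in 71 (65.74%), beside 50.8% and 56.41% in those backgrounds, and the median was -0.06. The groups did not overlap in 29 of them, 24 with all Ppif-/- hearts below all WT hearts, 22.22% beside 10.6% and 16.61% in this order in the same backgrounds. The 1 call among 108 genes stood beside 1.09% of all tested probe sets.

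The called gene was Mrm3, a methyltransferase that modifies the RNA of the large mitochondrial subunit, from the list of 30 assembly factors. It was at 7.89, 7.77 and 7.64 in the Ppif-/- hearts and at 8.42, 8.49 and 8.49 in the WT hearts. The WT hearts were close together, and the groups were far apart. Mrm3 fell by 0.70 ± 0.08 (SE) on the log2 scale, 1.63-fold lower, with an adjusted p of 0.00735 by limma, and it was called in all 18 alternatives (adjusted p 0.00274 to 0.042). The other methyltransferases of this RNA, Mrm1 and Mrm2, differed by -0.06 and 0.001. Differences below 0 made up 50.8% of all tested probe sets and 56.41% of genes within the level range of the mitochondrial ribosomal proteins. Of the 30 assembly factors, 22 had differences below 0 (73.33%), with a median of -0.06. They included the helicase Ddx28 at -0.33 (adjusted p = 0.137 by limma), while Rbfa, which acts on the small subunit, was at 0.18 (adjusted p = 0.317 by limma). The mean level of Ddx28 was 5.55, below every array median (6.03 to 6.11), and it was not among the brighter probe sets.

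The list of ribosomal proteins with other names held 5 measured genes: Dap3, Ptcd3, Chchd1, Gadd45gip1 and Oxa1l. Of these, Oxa1l is a membrane insertase and not a ribosomal protein. Gadd45gip1, a large-subunit protein at the exit tunnel, was at 7.81, 7.81 and 7.85 in the Ppif-/- hearts and at 7.40, 7.40 and 7.58 in the WT hearts. The groups did not overlap, and WT heart 3 was nearest to the Ppif-/- hearts. The difference was 0.36 ± 0.07 (SE, adjusted p = 0.0759 by limma), and it was called in 1 of the 18 alternatives. Dap3, a GTP-binding protein of the small subunit, was at 9.40, 9.51 and 9.43 against 9.69, 9.64 and 9.74, a difference of -0.24 (adjusted p = 0.175 by limma). Ptcd3, also of the small subunit, differed by -0.06 (adjusted p = 0.846 by limma).

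None of the 25 measured genes in the list of translation factors was called by limma. This list was broad and also held tRNA-modifying enzymes such as Mto1, the messenger RNA proteins Lrpprc and Slirp, and Letm1, Cox14 and Coa3. The lowest p belonged to Trit1, a tRNA-modifying enzyme, at -0.37 (adjusted p = 0.277 by limma), and 0 were higher and 2 lower at an unadjusted p under 0.05, beside 6.1% and 6.81% of all tested probe sets. Mtrf1, of the release factor family, was at -0.26 (adjusted p = 0.317 by limma) and Lrpprc, which stabilises mitochondrial messenger RNA, at -0.12 (adjusted p = 0.458 by limma). Of the 28 genes of mitochondrial RNA synthesis and processing, 0 were called by limma, and 0 were higher and 5 lower at an unadjusted p under 0.05, 17.86% lower beside 6.81% of all tested probe sets and 10.24% of genes within the level range of the mitochondrial ribosomal proteins. Differences below 0 were found in 23 of the 28 genes (82.14%), beside 50.8% and 56.41% in the same backgrounds, with a median of -0.08. The lowest p in this list was that of Ptcd1, an RNA-processing protein, at -0.30 (adjusted p = 0.146 by limma), ahead of the mitochondrial topoisomerase Top1mt at -0.29 (adjusted p = 0.205 by limma) and Twnk (adjusted p = 0.347 by limma). Among 20 regulators of mitochondrial gene expression 0 were called. At an unadjusted p under 0.05, 2 were higher and 1 lower, 15% in all beside 12.9% of all tested probe sets. Those 3 were the cell cycle factor E2f1 at 0.43 (adjusted p = 0.24 by limma), the growth kinase Mtor at -0.24 (adjusted p = 0.286 by limma) and the coactivator Ppargc1b at 0.23 (adjusted p = 0.318 by limma). The mean level of E2f1 was 5.71, below every array median, and neither E2f1 nor Trit1 was among the brighter probe sets. Without Ppif-/- heart 1 the E2f1 difference was 0.28, and without WT heart 2 the Ppargc1b difference was 0.15. Of the factors whose motifs were searched, Gabpa, the DNA-binding subunit of GABP, differed by -0.03, Nrf1 by -0.21 (adjusted p = 0.484 by limma) and Yy1 by -0.12 (adjusted p = 0.644 by limma).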

How the data were processed

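Levels are deposited log2 expression values per probe set that the authors made with RMA, per the submitters' processing notes; RMA corrects background, normalises between arrays and summarises probes. Its software and version, the array build and scan dates were not stated in any source at hand, so no batch was tested. RMA compresses differences of dim probe sets. The values, from 1.91 to 14.63, were used unchanged. All columns belonged to a sample of the series.

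Probe sets were named by the platform annotation. Symbols updated by Entrez identifier to a GRCm38.p6 gene table were used in an alternative, and for listed genes whose name the annotation lacked. Of 35557 probe sets, 23410 carried a symbol (21789 carried 1 and 1621 several) and were tested by a linear model with moderated variances (limma 3.58.1, R 4.3.3, 2-sided, no covariates), with p adjusted by Benjamini-Hochberg over all of them at a threshold of 0.05. Intervals are 95% intervals of that fit. The method was tested on simulated data. An exact permutation of 3 against 3 hearts cannot go below 0.1. The labels number the hearts and say no more of the animals, so p-values measure the spread between these 6 samples, whose number limits the precision.

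The members and gene lists were chosen with earlier results of these data known. Named genes are Ppif, called members, the 10 members with the smallest p in each direction, the 3 largest differences, members with a known role, and the called and 3 lowest-p genes of each partner list; other genes named, such as Gabpa, Nrf1, Yy1, Mrm1, Mrm2 and the window partners, were chosen after their values were seen. Alternatives covered the probe sets tested, averaging of a gene's probe sets, updated symbols, normalisation, variance model, replicate block and leaving out each heart. Averaging altered the values of only the 8 member genes with several probe sets, and updated symbols altered no fitted value.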

Additional observations from a re-analysis of the deposited data

How the results depend on the processing

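Mrpl55 was called in all 18 alternatives. The count of called mitochondrial ribosomal protein genes was 1 in 15 of them and 2, Mrpl55 and Mrps35, with brighter probe sets alone, a variance trend or array weights, and also 2 at an adjusted p under 0.1, which was chosen after seeing the data. Leaving out each heart in turn gave 1 to 1 called and 5 to 11 at an unadjusted p under 0.05, against 11 with all hearts (5 when the heart omitted was Ppif-/- heart 1 or 2, or WT heart 3). The share of all tested probe sets was 12.5%, 11.1% and 11.4% in these fits, in this order, beside 12.9% with all hearts. The cause of the lower counts was not tested. Brighter probe sets raised the partner genes called from 1 to 2, Gadd45gip1 and Mrm3. The median difference ran from -0.04 to -0.004. Ppif-/- and WT hearts were correlated over all tested probe sets after each probe set's genotype mean was subtracted, so the levels themselves were not compared. Same-numbered hearts then had correlations of -0.077, -0.061 and 0.118, and differently numbered ones had correlations from -0.133 to 0.163. With 3 hearts per genotype these values cannot show whether the numbers mark a pairing. With the replicate block 1 member was called, Mrpl55, and 8 had an unadjusted p under 0.05, beside 12.3% of all tested probe sets. Over 54 genes followed, 0 calls were lost or reversed. Counted once per gene and alternative, Ppif aside, 24 estimates that were not called changed sign, 4 gained a call and 923 kept sign and status. A gene could count several times.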

Other observations

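Mrpl20 stood apart from the other mitochondrial ribosomal protein genes by its spread over hearts and not by genotype, with a range of 1.03 log2 units over the 6 hearts. Only 1.961% of all tested probe sets had a wider range. Its nearest measured neighbours on the chromosome did not show the same order of hearts. Tmem88b was at 6.11, 5.51 and 6.11 in the Ppif-/- hearts and at 5.97, 6.35 and 6.08 in the WT hearts. Ccnl2, a cyclin linked to splicing, was at 9.36, 9.13 and 9.30 against 9.05, 9.17 and 8.76.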
